A study of Mus musculus with 4 samples.

Results

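Transcripts of 31 genes that build, anchor or regulate the receiving side of the synapse were followed in the lateral habenula of group-housed and socially isolated mice. The genes were chosen by symbol, as scaffolds, adhesion molecules and phosphatase genes of the postsynapse, and fall into 12 roles. They are 31 of the 53465 gene identifiers in the count matrix, and all 31 had enough counts to be among the 17528 genes tested. The mice were C57BL/6, with no genetic change or drug named in the labels, so the groups differ by housing: 2 libraries came from the lateral habenula of group-housed mice and 2 from that of socially isolated mice. The length of isolation, age and sex were not given in the sources used here. Nor do the labels state whether a library is 1 animal or several pooled, and the p-values therefore cover just the variation among these 4 samples, part or all of which may be technical. Libraries held 20897605 to 26428152 counts, at which 3 counts correspond to 0.113 to 0.146 CPM. CPM are counts scaled to a common library total after TMM correction. The lowest raw count of any of the 31 genes in a library was 142 (Dlgap2).

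An excitatory synapse holds its receptors under the membrane by a layered scaffold. MAGUK proteins such as PSD-95 bind receptor tails, SAPAP proteins link MAGUKs to SHANKs, and SHANKs bind Homer and the actin cytoskeleton. Neuroligins and LRRTMs reach across the cleft to presynaptic neurexins, and gephyrin does the anchoring at inhibitory synapses. Calcineurin and protein phosphatase 1 remove phosphate from receptors and are central to long-term depression. In the lateral habenula, a nucleus whose output inhibits midbrain dopamine and serotonin neurons, the strength of excitatory input is known to track aversive experience.

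None of the 31 genes passed the test. With edgeR's quasi-likelihood test, adjusted over every tested gene by Benjamini-Hochberg, 0 of 31 had an adjusted p of at most 0.05, where 0.0114% of all tested genes (2 of 17528) did. Without adjustment, 8 of 31 had a p under 0.05. Of these 8, 4 had higher values in the isolated libraries (Nrgn, Ppp1r1b, Grip2 and Grip1), where 2.83% of all tested genes did. The other 4 had lower values (Shank3, Dlgap3, Lrrtm1 and Lrrtm2), where 2.26% of all tested genes did. All 31 genes averaged at least 5 CPM, and among the 12235 tested genes at that level 5.86% had an unadjusted p under 0.05 in either direction. Because the 31 genes were chosen with earlier results known, no test is attached to that count. Over all genes, 55.5% of those with an unadjusted p under 0.05 were higher in isolated libraries. That share was 66.4% when scaled by library totals and 81.8% when scaled by general neuron markers.

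The differences were small throughout. The log2 fold changes, isolated against group-housed, ran from -0.30 to 0.38 with a median of -0.04, beside a median of 0.0033 over all tested genes. Standard errors of the 31 genes lay between 0.060 and 0.16. The mean was higher in isolated libraries for 10 genes (51.2% of all tested genes) and lower for 21 (48.8% of all tested genes). That split turned to 18 higher and 13 lower when libraries were scaled by general neuron markers, and to 16 and 15 without isolated replicate 2. The scaling by neuron markers moved the median over all tested genes as well, to 0.054, and that of the 31 genes to 0.011. Isolated libraries both exceeded the 2 group-housed ones for 7 of the genes (17.4% of all tested genes) and below for 10 (16.3% of all tested genes). The ranges of the groups overlapped for the other 14.

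**Figure D1:**
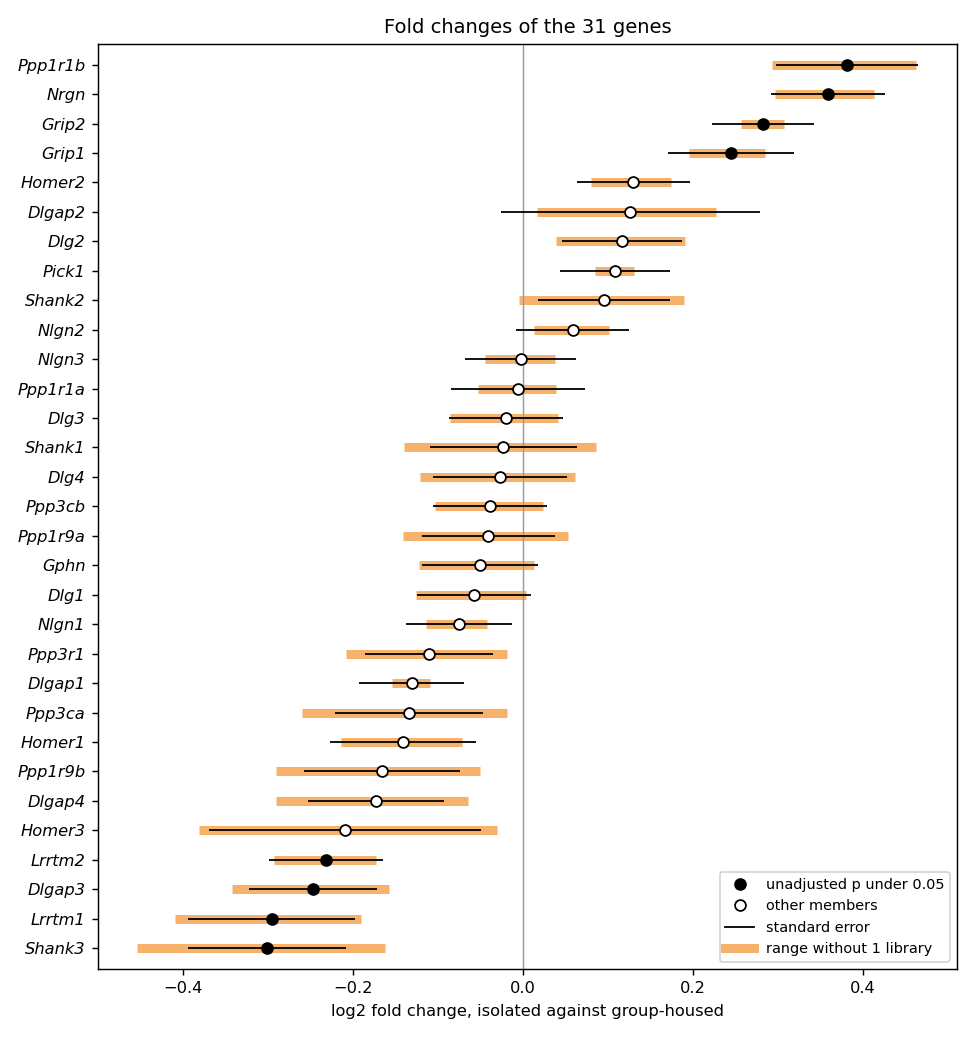
Log2 fold change of each of the 31 genes, isolated against group-housed (x axis); circles are fitted values, filled where the unadjusted p is under 0.05, black lines are 1 standard error and orange bars the range when 1 library is left out. The values run from -0.30 (Shank3) to 0.38 (Ppp1r1b), and the orange bars of all 8 filled circles stay on 1 side of 0. The filled genes were picked by p from these same libraries, so their bars are a description.

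Among the regulators of calmodulin and phosphatase activity, Nrgn and Ppp1r1b had the smallest p-values with Grip2. Nrgn (ENSMUSG00000053310, GRCm38 chromosome 9, 37544492 to 37552904, minus strand) encodes neurogranin, a small postsynaptic protein that binds calmodulin when calcium is low. It stood at 64.2 and 59.6 CPM in group-housed replicates 1 and 2 and at 80.9 and 77.7 CPM in isolated replicates 1 and 2. The isolated libraries did not overlap the group-housed ones. The means were 61.9 ± 3.25 and 79.3 ± 2.25 CPM (SD, n = 2 each), a log2 fold change of 0.36 (SE 0.07, edgeR adjusted p = 0.249). Ppp1r1b (ENSMUSG00000061718, chromosome 11, 98348404 to 98357796, plus strand) encodes DARPP-32, a protein phosphatase 1 inhibitor that dopamine signalling switches on through protein kinase A. It stood at 42.5 and 38.0 CPM in the group-housed and at 54.8 and 49.9 CPM in the isolated libraries, again without overlap. Its means were 40.3 ± 3.15 and 52.4 ± 3.48 CPM (SD, n = 2 each), a log2 fold change of 0.38 (SE 0.08, edgeR adjusted p = 0.409). Exons of 1700003D09Rik, on the opposite strand, cover 15.7% of the Ppp1r1b exon length, and that gene had 0 to 2 counts in a library. Ppp1r1a, which encodes inhibitor-1, a related phosphatase inhibitor, lay between 29.7 and 31.7 CPM in all 4 libraries. Per kilobase of exon, Ppp1r1b made up 37.7 and 35.8% of the sum of these inhibitor genes in group-housed libraries, against 45.1 and 41.2% in isolated ones.

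The PDZ adaptors of AMPA receptors were higher in both isolated libraries than in either group-housed one, all 3 of 3. Over all tested genes, 17.4% had both isolated libraries above. Grip2 (ENSMUSG00000030098, chromosome 6, 91761509 to 91827250, minus strand) and Grip1 (ENSMUSG00000034813, chromosome 10, 119453830 to 120087261, plus strand) encode multi-PDZ proteins that bind the tails of GluA2 and GluA3. Grip2 stood at 72.9 and 74.0 CPM in group-housed and at 90.9 and 87.8 CPM in isolated libraries. Its group means were 73.5 ± 0.762 and 89.3 ± 2.17 CPM (SD, n = 2 each), a log2 fold change of 0.28 (SE 0.06, edgeR adjusted p = 0.369). Grip1 stood at 35.2 and 33.3 CPM in group-housed and at 40.2 and 41.0 CPM in isolated libraries. The group means of Grip1 were 34.3 ± 1.34 and 40.6 ± 0.588 CPM (SD, n = 2 each), a log2 fold change of 0.24 (SE 0.07, edgeR adjusted p = 0.769). The summed level of both Grip genes was 108 and 107 CPM against 131 and 129 CPM. Grip2 gave 64.1 to 66.1% of the pair per kilobase in every library, and the ranges of that share overlapped between groups. Pick1, whose product binds the same receptor tails and takes part in receptor internalisation, stood at 55.6 and 57.6 against 61.9 and 60.1 CPM (log2 fold change 0.11, edgeR adjusted p = 0.979). Exons of Gm49486, on the same strand, cover 18.6% of the Pick1 exon length. That gene was not found in the count matrix, so whether the overlap affected the Pick1 counts is not known.

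In the SHANK family, the scaffold layer that binds Homer and actin, values were lower in both isolated libraries for 1 of 3. Over all tested genes, 16.3% had both isolated libraries below. Shank3 (ENSMUSG00000022623, chromosome 15, 89499623 to 89560261, plus strand) stood at 222.4 and 228.1 CPM in group-housed and at 201.1 and 164.5 CPM in isolated libraries. Both isolated values lay below the group-housed ones, and isolated replicate 2 was the lower of the pair. The means were 225.2 ± 4.08 and 182.8 ± 25.9 CPM (SD, n = 2 each), a log2 fold change of -0.30 (SE 0.09, edgeR adjusted p = 0.780). Its size depended on which isolated library was kept: -0.45 without isolated replicate 1 and -0.16 without isolated replicate 2. Each of these fits leaves a lone isolated sample. Shank1 stood at 437.6 and 433.7 against 462.0 and 395.4 CPM, and Shank2 at 129.8 and 122.5 against 143.7 and 125.7 CPM, both with overlapping groups. Within a library, where scaling cancels, Shank3 per kilobase was 31.1 and 32.1% of the family in group-housed and 27.6 and 26.6% in isolated libraries. The counts of Shank3 relative to Shank1 were 0.508 and 0.526 in group-housed and 0.435 and 0.416 in isolated libraries. These ratios were picked after the values were seen, and no test was made of them.

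The SAPAP genes, whose products join MAGUKs to SHANKs, were lower in both isolated libraries for 3 of 4 (16.3% of all tested genes). Dlgap3 (ENSMUSG00000042388, chromosome 4, 127169204 to 127237022, plus strand), the SAPAP gene known for compulsive grooming in mutant mice, stood at 182.3 and 176.2 CPM in group-housed and at 160.5 and 141.4 CPM in isolated libraries. The means were 179.2 ± 4.38 and 151.0 ± 13.5 CPM (SD, n = 2 each), a log2 fold change of -0.25 (SE 0.07, edgeR adjusted p = 0.769). That was -0.34 (edgeR adjusted p = 0.0496) without isolated replicate 1 and -0.16 (edgeR adjusted p = 0.804) without isolated replicate 2. Dlgap1 stood at 220.6 and 218.6 against 203.4 and 197.5 CPM (log2 fold change -0.13), and Dlgap4 at 173.1 and 172.0 against 164.8 and 141.2 CPM (-0.17), each with an edgeR adjusted p of 0.979. Dlgap2, the least abundant of the 31 genes per kilobase, overlapped between groups at 6.92 and 7.82 against 8.65 and 7.48 CPM. The family summed to 583 and 575 CPM in group-housed and 537 and 488 CPM in isolated libraries. Dlgap3 made up 54.3 and 53.5% of the family per kilobase in group-housed and 52.4 and 51.9% in isolated libraries.

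The MAGUK genes differed little. Dlg4, which encodes PSD-95, stood at 387.3 and 380.6 CPM in group-housed and at 400.2 and 353.1 CPM in isolated libraries, with overlap. Its log2 fold change was -0.03 (SE 0.08). Dlg2, which encodes PSD-93, had both isolated libraries above the group-housed ones, at 196.7 and 197.5 against 224.8 and 202.6 CPM (log2 fold change 0.12, edgeR adjusted p = 0.979). Dlg1 (SAP97) and Dlg3 (SAP102) overlapped, with log2 fold changes of -0.06 and -0.02. Per kilobase, Dlg4 held 39.7 to 41.0% of this family in every library.

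Homer proteins tie SHANK to group I metabotropic glutamate receptors. Homer2 had both isolated libraries above the others, at 99.2 and 106.6 against 115.8 and 109.4 CPM (log2 fold change 0.13), and Homer1 had both below, at 27.1 and 26.7 against 25.6 and 23.2 CPM (-0.14). Each had an edgeR adjusted p of 0.979. Homer3 overlapped, at 11.5 and 14.5 against 10.02 and 12.5 CPM. Exons of Ddx49, on the opposite strand, cover 25.4% of the Homer3 exon length, and because it is not known whether counting used strand, the Homer3 counts are uncertain to that extent. Counts per gene cannot separate the short, activity-induced Homer1 transcript from the long ones.

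Gphn, the gene of the inhibitory scaffold gephyrin, overlapped between groups at 68.2 and 62.5 against 63.6 and 62.4 CPM (log2 fold change -0.05, SE 0.07).

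Of the adhesion genes, both LRRTM genes were lower in both isolated libraries (16.3% of all tested genes). LRRTMs are leucine-rich repeat proteins that bind neurexins and hold AMPA receptors at excitatory synapses. Lrrtm1 (ENSMUSG00000060780, chromosome 6, 77242689 to 77257791, plus strand) stood at 46.5 and 53.3 CPM in group-housed and at 43.8 and 37.7 CPM in isolated libraries. Its means were 49.9 ± 4.83 and 40.7 ± 4.32 CPM (SD, n = 2 each), a log2 fold change of -0.30 (SE 0.10, edgeR adjusted p = 0.815), which was -0.19 without isolated replicate 2. Lrrtm2 stood at 79.6 and 77.2 CPM in group-housed and at 69.5 and 64.0 CPM in isolated libraries. The means of Lrrtm2 were 78.4 ± 1.74 and 66.7 ± 3.86 CPM (SD, n = 2 each), a log2 fold change of -0.23 (SE 0.07, edgeR adjusted p = 0.716). Set against Grip2, the difference is visible inside each library: the counts of Grip2 relative to Lrrtm2 were 0.916 and 0.959 in group-housed and 1.31 and 1.37 in isolated libraries. This pair was also picked after its values were seen.

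The neuroligins differed by less than their standard errors or little more. Nlgn2, the neuroligin of inhibitory synapses, stood at 257.9 and 265.8 against 280.9 and 264.4 CPM and gave 76.8 to 78.3% of the neuroligin sum per kilobase. Nlgn3, found at both kinds of synapse, stood at 66.7 and 69.6 against 70.0 and 66.2 CPM. Exons of Gm21986, on the same strand, cover 41.2% of the Nlgn3 exon length, and the Nlgn3 counts are uncertain to that extent. Nlgn1, the neuroligin of excitatory synapses, had both isolated libraries below the others by a small margin, at 80.8 and 85.5 against 79.2 and 78.6 CPM (log2 fold change -0.08, SE 0.06).

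**Figure D2:**
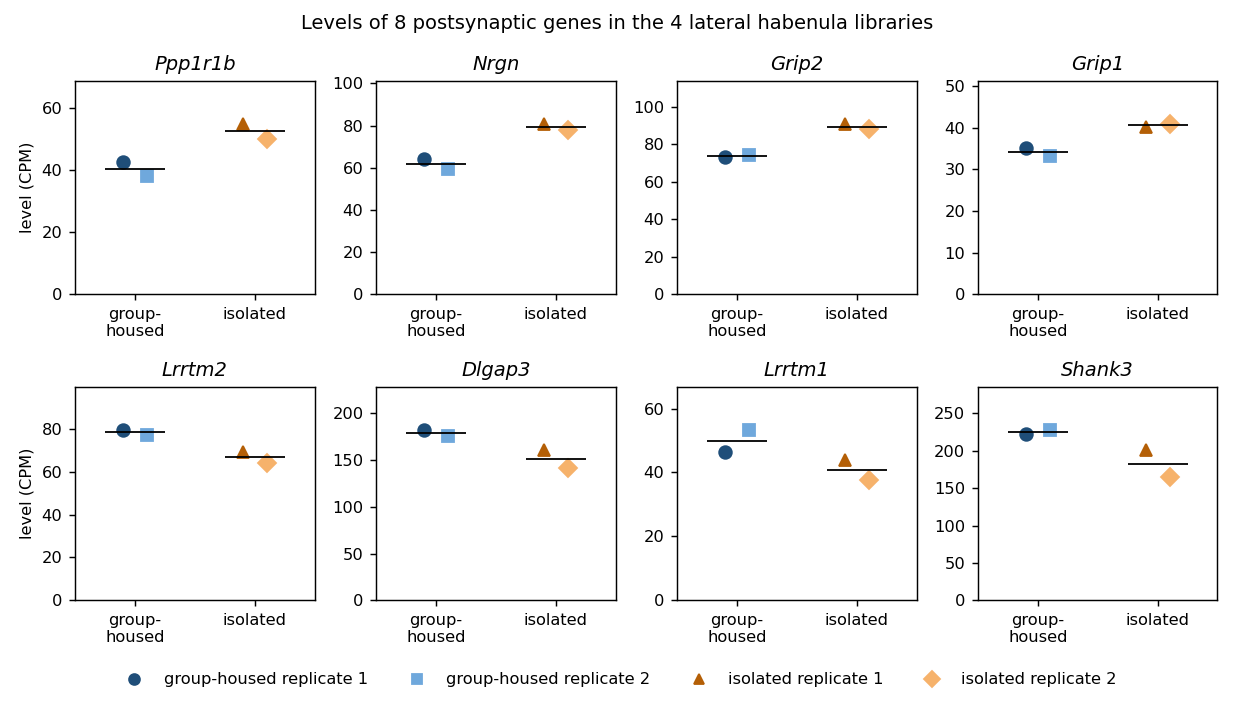
Level in CPM (y axis, starting at 0) of the 8 genes with an unadjusted p under 0.05, for the 2 group-housed and 2 isolated libraries; points are libraries and the short lines are group means. Nrgn, Ppp1r1b, Grip2 and Grip1 are higher in both isolated libraries, and Shank3, Dlgap3, Lrrtm1 and Lrrtm2 are lower in both; none passed the adjusted test.

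Calcineurin, the calcium-dependent phosphatase, is a catalytic subunit with a regulatory one. The catalytic genes Ppp3ca (167.4 and 181.6 against 172.2 and 145.9 CPM) and Ppp3cb (183.6 and 181.7 against 185.5 and 170.1 CPM) overlapped between groups. The regulatory Ppp3r1 stood at 178.5 and 181.6 against 177.6 and 155.9 CPM; both isolated values lay below both group-housed ones, the first by less than 1 CPM (log2 fold change -0.11, edgeR adjusted p = 0.995). In all 3, isolated replicate 2 was the lowest library. Ppp1r9b, the gene of spinophilin, which brings protein phosphatase 1 to actin in dendritic spines, stood at 589.5 and 561.5 CPM in group-housed and at 555.1 and 470.6 CPM in isolated libraries (log2 fold change -0.17, SE 0.09, edgeR adjusted p = 0.979). Ppp1r9a, the gene of the related neurabin, overlapped at 194.6 and 205.1 against 207.3 and 181.3 CPM.

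Between genes, levels were compared per kilobase of annotated exon. Over the 4 libraries Ppp1r9b was highest at 107 CPM per kilobase, followed by Ppp3r1 (53.7), Nrgn (48.6), Nlgn2 (46.2), Shank1 (41.1), Dlgap3 (36.5) and Dlg4 (28.7). The lowest were Homer3 (3.53), Homer1 (2.14) and Dlgap2 (1.25). Neighbours such as Nrgn and Nlgn2 lay closer together than their spread over libraries. Gene length here is the union of all annotated exons, so a gene whose long exons are little used reads too low.

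**Figure D3:**
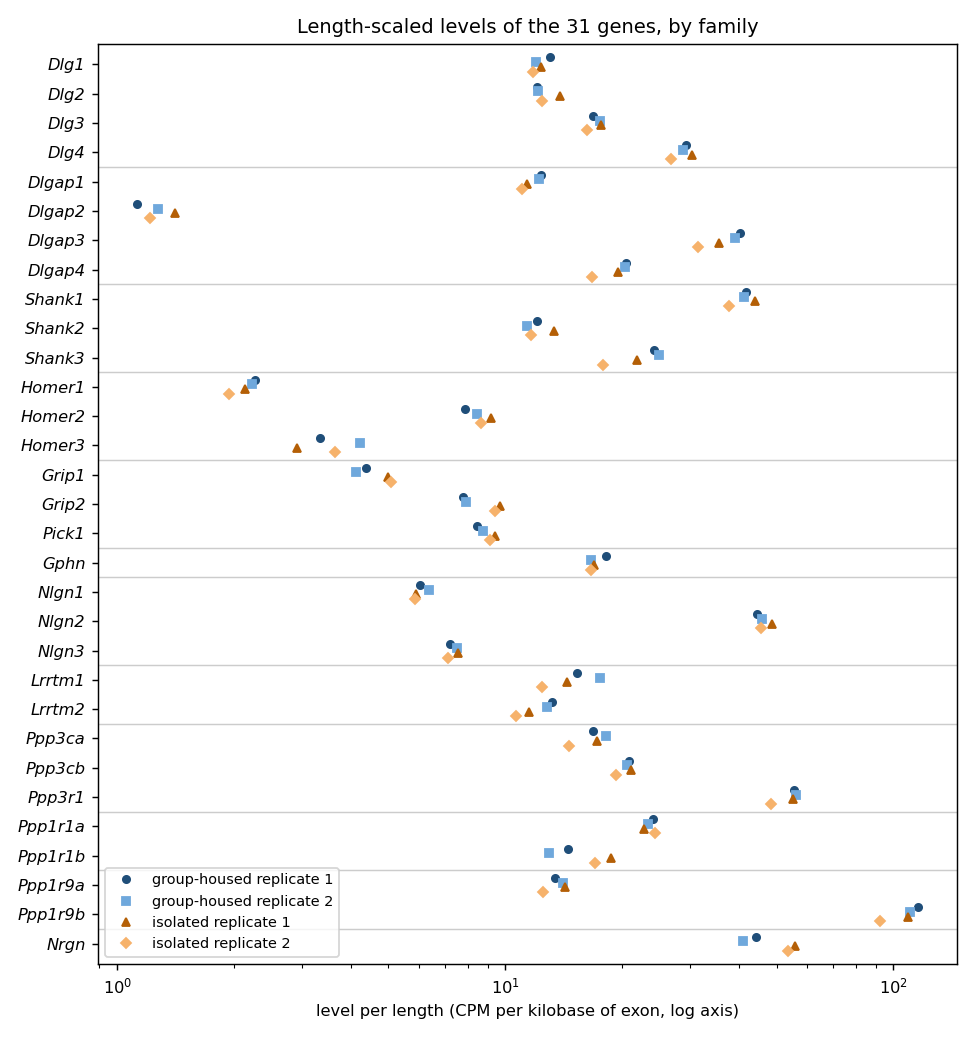
Level in CPM per kilobase of exon (x axis, logarithmic) of the 31 genes, listed by family on the y axis; each marker is 1 of the 4 libraries. Ppp1r9b stands highest, with a mean of 107, and Dlgap2 lowest, with a mean of 1.25 CPM per kilobase.

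Promoters of 5 of the 8 genes are shown so that the start regions of genes higher (Nrgn, Grip2) and lower (Shank3, Dlgap3, Lrrtm1) in isolated libraries can be set side by side. They are the genes among the 8 with exactly 1 window in the RefSeq table used (GRCm38.p6; 23 of 31 genes had an entry). Of the other 3, Grip1 had 3 windows, and Ppp1r1b and Lrrtm2 had no entry. A window runs from 250 bases before to 50 bases after the start and is written 5′ to 3′ on the gene's strand. The start is that of the RefSeq table and can differ from the end of the gene span given above. The Grip2 and Dlgap3 windows lie inside those spans, and the Lrrtm1 window lies wholly before its span. Capitals mark GGGCGG on either strand, the core of the GC box bound by Sp factors.
Nrgn promoter window, chr9:37552696-37552995, minus strand: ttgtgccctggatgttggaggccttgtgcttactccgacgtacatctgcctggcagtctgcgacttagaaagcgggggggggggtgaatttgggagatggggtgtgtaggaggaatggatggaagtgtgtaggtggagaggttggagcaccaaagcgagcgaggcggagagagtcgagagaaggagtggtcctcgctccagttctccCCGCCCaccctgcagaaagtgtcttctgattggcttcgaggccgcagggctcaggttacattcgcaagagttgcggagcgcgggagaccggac
Grip2 promoter window, chr6:91807344-91807643, minus strand: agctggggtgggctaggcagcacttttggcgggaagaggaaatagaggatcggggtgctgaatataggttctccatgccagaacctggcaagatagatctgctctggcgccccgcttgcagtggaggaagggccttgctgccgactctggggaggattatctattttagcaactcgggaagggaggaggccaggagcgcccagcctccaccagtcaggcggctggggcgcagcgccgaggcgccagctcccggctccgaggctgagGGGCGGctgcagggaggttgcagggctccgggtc
Shank3 promoter window, chr15:89499358-89499657, plus strand: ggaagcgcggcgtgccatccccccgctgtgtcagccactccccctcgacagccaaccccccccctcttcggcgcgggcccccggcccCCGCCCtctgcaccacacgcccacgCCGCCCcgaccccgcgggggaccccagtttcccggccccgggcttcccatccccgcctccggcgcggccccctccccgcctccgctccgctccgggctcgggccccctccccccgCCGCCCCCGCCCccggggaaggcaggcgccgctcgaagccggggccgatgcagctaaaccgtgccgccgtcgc
Dlgap3 promoter window, chr4:127172630-127172929, plus strand: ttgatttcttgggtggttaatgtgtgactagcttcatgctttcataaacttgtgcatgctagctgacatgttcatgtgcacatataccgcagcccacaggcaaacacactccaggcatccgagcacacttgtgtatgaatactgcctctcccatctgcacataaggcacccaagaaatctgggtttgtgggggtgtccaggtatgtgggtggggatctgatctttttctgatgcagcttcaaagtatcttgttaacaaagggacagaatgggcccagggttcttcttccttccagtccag
Lrrtm1 promoter window, chr6:77242227-77242526, plus strand: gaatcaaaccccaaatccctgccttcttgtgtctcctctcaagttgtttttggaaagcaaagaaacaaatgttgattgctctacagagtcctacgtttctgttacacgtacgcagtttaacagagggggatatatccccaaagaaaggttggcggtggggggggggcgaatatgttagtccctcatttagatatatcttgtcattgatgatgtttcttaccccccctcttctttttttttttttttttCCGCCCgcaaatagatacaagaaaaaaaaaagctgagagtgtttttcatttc

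The GC contents of the genes with higher values lay within the range of those with lower values. GC content was 59.3% for Nrgn and 64.3% for Grip2, and 81.0% for Shank3, 47.7% for Dlgap3 and 40.7% for Lrrtm1, beside a median of 52.7% over all 32851 windows. GGGCGG was found 4 times in Shank3, once in each of Nrgn, Grip2 and Lrrtm1, and not in Dlgap3. Of all windows 35.7% held it, and of the 39 windows of the 31 genes 51.3% did. The cyclic AMP response element TGACGTCA was found in 0 of these 39 windows (1.79% of all windows), the E-box CACGTG in 4 (7.15%) and TATAAA in 4 (13.6%), each searched on both strands. A match or its absence in these letters is a description and says nothing of binding.

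In the summed level of the 31 genes, the 2 isolated libraries stood on opposite sides of the group-housed ones. Isolated replicate 2 was the lowest of the 4 libraries for 19 of the 31 genes (61.3%; 27.4% of all tested genes), and isolated replicate 1 was the highest for 15 (48.4%; 25.3%). The summed level of the 31 genes was 4548 and 4535 CPM in group-housed libraries, 4619 CPM in isolated replicate 1 and 4140 CPM in isolated replicate 2. The log2 fold changes of Shank3 and Dlgap3 were -0.30 and -0.25 with all 4 libraries. Without isolated replicate 1 they were -0.45 and -0.34, and without isolated replicate 2 both were -0.16. Summed markers of ependyma, the ciliated cells that line the ventricle, were 64.3 and 60.7 CPM in group-housed, 66.5 CPM in isolated replicate 1 and 137 CPM in isolated replicate 2. Thalamus markers summed to 1466 and 1561 CPM in group-housed, 1448 CPM in isolated replicate 1 and 1260 CPM in isolated replicate 2. General neuron markers were also lowest in isolated replicate 2, at 5553 CPM against 5877 to 6160 CPM in the others. Oligodendrocyte markers were instead lowest in isolated replicate 1, at 10494 CPM against 12332 CPM in isolated replicate 2. The part of these marker differences between libraries in the results for the 31 genes was not tested.

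**Figure D4:**
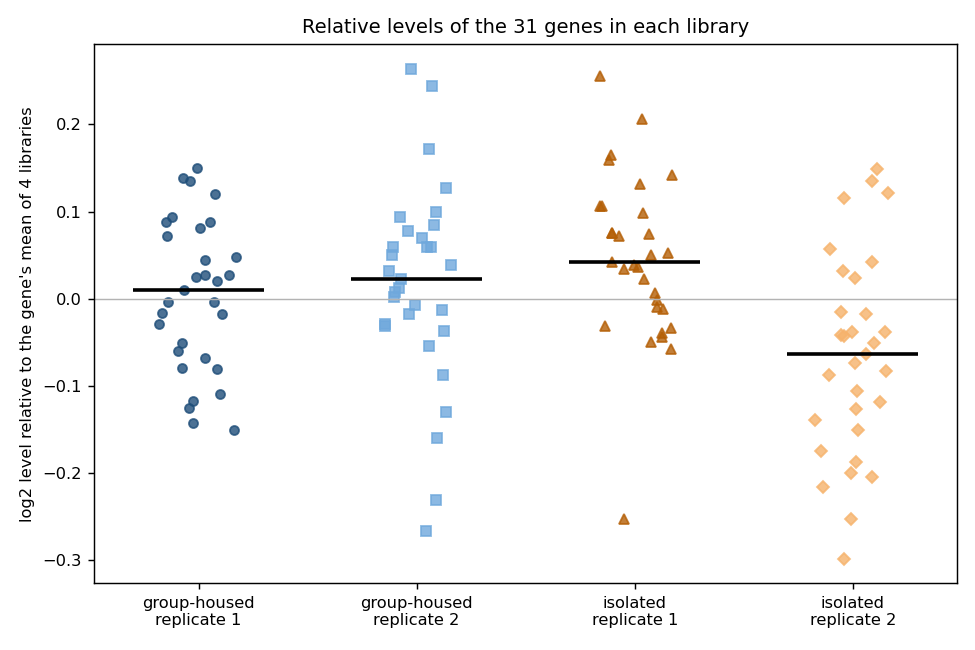
Level of the 31 genes in each library (x axis) on a scale where that gene's 4-library mean is 0 (y axis, log2 of CPM + 0.5); points are genes and black lines are medians. The medians are 0.010 and 0.022 in group-housed replicates 1 and 2, 0.042 in isolated replicate 1 and -0.063 in isolated replicate 2.

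Markers of the tissue and of its neighbours were read beside these genes. The lateral habenula genes Gpr151 (397, 352, 426 and 426 CPM in group-housed replicates 1 and 2 and isolated replicates 1 and 2), Pou4f1 (136, 130, 162 and 151 CPM) and Htr2c (261, 242, 253 and 214 CPM) were present in every library. Both Gpr151 and Pou4f1 are also expressed in the medial habenula. Of all 10 lateral habenula markers 4 were higher and 6 lower in isolated libraries (median log2 fold change -0.07), with overlapping sums of 1675 to 1792 against 1613 to 1838 CPM. No marker was at 0 in all libraries. Of 10 medial habenula markers 9 were higher in isolated libraries, with sums of 1615 to 1704 CPM in group-housed and 2021 to 2031 CPM in isolated libraries. Of 12 thalamus markers 11 were lower, with sums of 1466 to 1561 against 1260 to 1448 CPM. Oligodendrocyte markers were lower for 12 of 12, with sums of 12843 to 13828 against 10494 to 12332 CPM. General neuron markers were lower for 10 of 12, with overlapping sums of 5877 to 6160 against 5553 to 6071 CPM. For Nrgn, which forebrain principal neurons express strongly, 4 of the 7 tested hippocampus and cortex markers were higher, with sums of 171 to 173 against 187 to 194 CPM, and 5 further ones had too few counts to test. For Ppp1r1b, a marker of striatal projection neurons, 2 of 7 striatum markers were higher, and their sums overlapped (87.0 to 96.8 against 86.5 to 96.6 CPM). The part of these tissue markers in the differences of the 31 genes was not tested. In bulk tissue, fewer cells of a type and less RNA per cell cannot be told apart.

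Other genes of the same synaptic machinery were read from 6 lists. Of their 97 genes, 0 passed the adjusted test (0.0114% of all tested genes). An unadjusted p under 0.05 was found for 3 of the 97, all lower. Over all tested genes, 5.09% had such a p in either direction and 2.26% had one with lower values. Receptors held by these scaffolds were lower for 10 of 13 (48.8% of all tested genes), with a median log2 fold change of -0.09. The one with the smallest p was Grin2c, an NMDA receptor subunit, at 32.9 and 35.1 CPM in group-housed and 25.6 and 22.5 CPM in isolated libraries (log2 fold change -0.50, SE 0.09, edgeR adjusted p = 0.246). Among 25 other postsynaptic density proteins, 13 were higher and 12 lower (median 0.0038). Camk2a, the α subunit of the kinase CaMKII, was their only gene with an unadjusted p under 0.05, at 304.5 and 323.6 against 263.0 and 212.5 CPM (log2 fold change -0.40, SE 0.10, edgeR adjusted p = 0.540). The counts of Nrgn, whose product shares calmodulin with this kinase, relative to Camk2a were 0.211 and 0.184 in group-housed and 0.308 and 0.366 in isolated libraries, a pair picked after the values were seen.

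Among 10 presynaptic partners of neuroligins, of LRRTMs or of the neurexins they bind, 5 were higher and 5 lower. Cbln1, a secreted bridge between neurexins and δ receptors, had the smallest p there, at 185.8 and 174.3 against 151.0 and 163.5 CPM (log2 fold change -0.19, edgeR adjusted p = 0.853). Other postsynaptic adhesion molecules were higher for 8 and lower for 14 of 22, and Lrrc4 had the smallest p (log2 fold change -0.19, edgeR adjusted p = 0.974). Partners of gephyrin were higher for 4 and lower for 7 of 11, led by Gabra3, a GABA-A receptor subunit (-0.19, edgeR adjusted p = 0.979). Other calcineurin, protein phosphatase 1 and calmodulin genes were higher for 5 and lower for 11 of 16. No gene of these last 3 lists had an unadjusted p under 0.05.

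**Figure D5:**
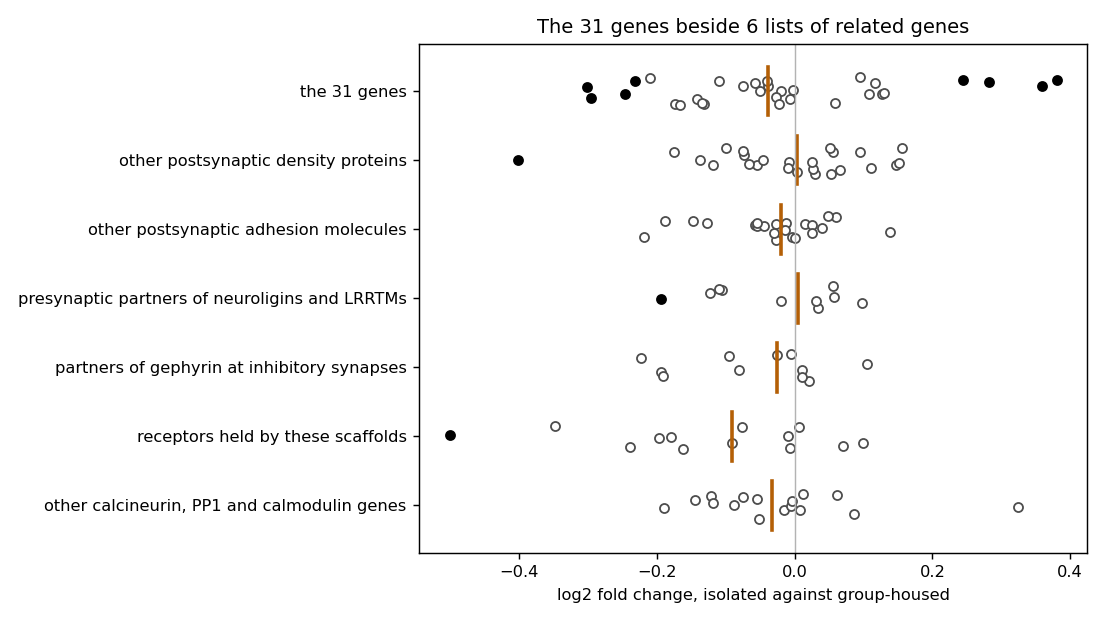
Log2 fold change, isolated against group-housed (x axis), of the 31 genes and of the genes in 6 lists of related genes; points are genes, filled where the unadjusted p is under 0.05, and orange lines are medians. The list medians lie between -0.09 (receptors) and 0.0053 (presynaptic partners), and 3 points outside the 31 genes are filled.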

How the data were processed

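Poly(A) RNA from the lateral habenula was sequenced in 4 libraries, 2 per housing group. Per the labels' protocols, Trizol was used for extraction and the Illumina TruSeq Stranded mRNA LT kit for libraries. The build GRCm38 and the tools HTSeq, TopHat2 2.1.1, CASAVA and edgeR appear in the submitters' processing notes, without their roles. The annotation release and strand setting were not given in the sources used here. Every test started from the raw read counts per Ensembl gene that the authors deposited. The authors also deposited a scaled signal per library, which was not used here.

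Symbols (53274 of 53465 identifiers), coordinates, exon lengths and overlaps came from GENCODE for GRCm38, and promoters from RefSeq. Of the 31 genes, 14 share exon bases with another gene. Over more than 10% of their exon length, 5 do so (Nlgn3, Homer3, Pick1, Ppp1r1b and Ppp3r1), where counts can be uncertain. The partner of Pick1 was not found in the count matrix. Genes were kept by edgeR's filterByExpr (17528), scaled by TMM (factors 0.983 to 1.02), and tested in R 4.3.3 with edgeR 4.0.16 by the 2-sided quasi-likelihood test (biological coefficient of variation 7.20%, 2 residual degrees of freedom). P-values were adjusted over all tested genes at 0.05. The SE is the absolute log2 fold change over the square root of F. Relative levels used a pseudocount of 0.5 CPM. The code was tested on simulated data.

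The 31 genes and all lists were chosen with earlier results of these data known. Genes with an unadjusted p under 0.05 were described in full, and of each related list up to 3 such genes, otherwise the 1 with the smallest p. Some genes that this rule or a list holds are not reported here. In all, 13 alternatives were run, among them DESeq2 1.42.0 and limma 3.58.1 (voom). The floors of 3 counts cover counting error only. The SE also includes the variation between libraries that the fit estimates.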

Additional observations from a re-analysis of the deposited data

How the results depend on the processing

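All 8 genes with an unadjusted p under 0.05 kept their direction under the 13 alternatives. They were picked by that p from these same libraries, and their groups did not overlap. The kept directions were therefore close to fixed in advance and add no support. The number of genes called over all tested was 2. It was 15 with no filter on low counts, 52 with DESeq2, 82 with edgeR's exact test, and 1 to 221 when 1 library was left out, with 221 without isolated replicate 1. Of the 31 genes, the exact test called 2 (Nrgn, adjusted p = 0.00635, and Ppp1r1b, adjusted p = 0.0427), and leaving out 1 library called 0 to 2 (2 without isolated replicate 1). With the replicate number as a block, edgeR called 64 genes, 2 of them among the 31 (Nrgn, adjusted p = 0.0263, and Ppp1r1b, adjusted p = 0.0421). The labels do not pair the libraries, and the deviations of same-numbered libraries correlated at 0.15. The median log2 fold change of the 31 genes ran from -0.0858 (without isolated replicate 1) to 0.0231 (without isolated replicate 2).

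Directions turned in genes with small differences, and the cause was not tested. Over all tested genes, the median log2 fold change was 0.0033 in the main fit. It was 0.054 when scaled by general neuron markers and 0.023 when scaled by library totals. Scaled by general neuron markers, the log2 fold change was 0.0283 for Dlg3, 0.0212 for Dlg4, 0.0243 for Shank1, 0.00132 for Gphn, 0.0467 for Nlgn3, 0.0109 for Ppp3cb, 0.0474 for Ppp1r1a and 0.0062 for Ppp1r9a. Scaled by library totals it was 0.0164 for Nlgn3 and 0.0144 for Ppp1r1a, and with a minimum mean of 5 CPM 0.00161 for Nlgn3. With 1 library left out, it ran from -0.126 to 0.00345 for Dlg1, -0.0858 to 0.0414 for Dlg3, -0.121 to 0.0607 for Dlg4, -0.141 to 0.0852 for Shank1, -0.00545 to 0.189 for Shank2, -0.123 to 0.0129 for Gphn, -0.0448 to 0.0372 for Nlgn3, -0.104 to 0.0231 for Ppp3cb, -0.0528 to 0.0385 for Ppp1r1a and -0.142 to 0.0529 for Ppp1r9a. A fit without 1 library leaves a group with a lone sample, which is assumed to vary like the other group. With 2 libraries per group, even differences several times their standard errors did not pass the main edgeR test for these genes. Examples were Nrgn (log2 fold change 0.36, SE 0.07, edgeR adjusted p = 0.249) and Grip2 (0.28, SE 0.06, edgeR adjusted p = 0.369). Ppp1r1b was another (0.38, SE 0.08, edgeR adjusted p = 0.409). Differences of that size or smaller, relative to their standard errors, can therefore not be taken as absent.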
